A study of Mus musculus with 16 samples.

Results

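Glutathione transferases are enzymes that join the tripeptide glutathione to reactive, electrophilic compounds, which makes these compounds more soluble and ready for export from the cell. The cytosolic enzymes are grouped into classes named by Greek letters (alpha, mu, pi, theta, omega and zeta), and the kappa class works in mitochondria and peroxisomes. In heart muscle, which burns fatty acids and forms lipid peroxides, the family is known for clearing aldehydes that arise from oxidised lipids.

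The family is represented here by 10 mouse genes of 22911 genes named on the arrays: Gsta2, Gsta3 and Gsta4 of the alpha class, Gstm1, Gstm2 and Gstm5 of the mu class, Gstp1 (pi), Gstt1 (theta), Gsto1 (omega) and Gstk1 (kappa). A probe was taken as belonging to one of them when its RefSeq accession maps to that gene, which gave 14 probes. All 14 probes lay well above background on all 16 arrays and none was saturated. All 10 genes were therefore among the 13725 genes tested. The genes were picked with their levels in the groups of these same arrays already known, so their levels, differences and calls are given as a description and carry no independent evidence.

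The arrays measured total RNA from the heart apex of male C57Bl/6 mice aged 3 months, 4 mice in each of 4 groups. Every mouse, controls included, carried 1 copy of the MHC-mercremer transgene, in which a cardiac myosin heavy chain promoter drives a Cre recombinase that tamoxifen switches on, so that only cardiomyocytes should recombine. Every mouse also received 4-hydroxytamoxifen, 500 µg per day in 5 daily injections, and was sampled 21 days after induction. The control mice had no floxed Akt allele, the AKT1 KO mice were homozygous for floxed AKT1, the AKT2 KO mice for floxed AKT2, and the AKT1+AKT2 DKO mice (DKO below) for both. AKT1 and AKT2 are the kinases that pass on the insulin and growth factor signal from PI3-kinase. Other cells of the heart keep both kinases. The sample titles call all hearts untreated, and no treatment beyond the induction was reported. Controls with the floxed alleles but no Cre were not analysed here.

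A level below is the log2 of an array's processed probe signal minus the log2 of the 75th percentile of that array, and a difference is a difference of 2 group means on this scale (limma, all 16 arrays). A gene was called in a comparison when its Benjamini-Hochberg adjusted p over all 13725 genes was below 0.05. Levels of different probes are not comparable with each other. Between 43.1% and 54% of probes were well above background on an array, and the 75th percentile lay between 492 and 809 intensity units. The Akt2 probe had a mean level of 4.91 in controls, 2.54 in AKT2 KO hearts and 2.91 in DKO hearts, whereas the Akt1 probe stayed between 5.11 and 5.23 in all 4 groups and does not check the AKT1 label. Each group filled 1 position column on both slides, so array column and group cannot be told apart. AKT1 KO replicate 1 stood apart from the other arrays of its group, being the lowest for 9 of 10 transferases and for 54.8% of all genes. DKO replicate 3 was the lowest of its group for 40.9% and the highest for 38.5% of all genes.

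The stretches before 3 members and 1 neighbouring gene are shown. Gsta2 is the member with the largest difference and its neighbour Gm10639 moved with it. Gsta3 and Gstm5 are the members whose stretch holds the core of the antioxidant response element, the site where the stress factor NRF2 binds with small MAF proteins. The sequences and all gene positions given here are RefSeq's (GRCm38.p6). The sequences run 5′ to 3′ on the gene's own strand and were cut to bases outside the annotated gene. Of the 10 members, 9 had an entry, and 8 had a stretch outside the gene that was long enough to be searched. In the first pair, on chromosome 9, capitals mark runs of at least 12 letters that Gsta2 (chr9:78347193-78347395, minus strand) and Gm10639 (chr9:78289678-78289927, plus strand) share.
Gsta2: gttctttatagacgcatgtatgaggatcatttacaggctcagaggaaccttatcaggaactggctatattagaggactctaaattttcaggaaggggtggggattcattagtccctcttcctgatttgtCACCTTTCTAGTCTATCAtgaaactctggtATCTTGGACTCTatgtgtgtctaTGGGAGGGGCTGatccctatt
Gm10639: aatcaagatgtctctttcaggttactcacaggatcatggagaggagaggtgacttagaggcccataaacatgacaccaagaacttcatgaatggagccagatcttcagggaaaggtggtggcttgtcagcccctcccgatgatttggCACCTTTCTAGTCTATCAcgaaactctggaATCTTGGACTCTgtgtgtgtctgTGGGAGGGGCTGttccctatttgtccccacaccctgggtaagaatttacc
In the second pair, capitals mark the letters TGACNNNGC, searched on both strands, before Gsta3 (chr1:21240335-21240564, plus strand) and Gstm5 (chr3:107895604-107895853, plus strand).
Gsta3: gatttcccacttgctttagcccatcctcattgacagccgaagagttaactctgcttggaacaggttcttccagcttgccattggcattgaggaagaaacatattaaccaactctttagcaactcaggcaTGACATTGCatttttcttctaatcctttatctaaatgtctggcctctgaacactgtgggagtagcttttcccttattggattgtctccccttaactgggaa
Gstm5: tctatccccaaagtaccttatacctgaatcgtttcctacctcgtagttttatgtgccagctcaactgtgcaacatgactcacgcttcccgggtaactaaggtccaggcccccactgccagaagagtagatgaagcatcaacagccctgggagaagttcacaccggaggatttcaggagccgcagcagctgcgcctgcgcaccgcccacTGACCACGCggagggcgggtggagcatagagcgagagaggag
The Gsta2 and Gm10639 stretches shared runs that cover 42 bases, the longest of 18 letters, while the longest run that Gsta2 shared with Gsta3, of its own class, had 7 letters. TGACNNNGC was found in 2 of the 8 members' stretches, and in 9.68% of 19827 upstream windows of 250 bases over all genes. The letters GTAAACA, the core that FoxO factors bind, were in none of the 8 stretches and in 3.35% of all windows. A match is a description of letters, and a missing match says only that these letters are not in this window.

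Among the 10, Gsta2 was the transferase that separated AKT1 KO hearts from every other group. Gsta2 is an alpha class enzyme that also reduces lipid hydroperoxides. Its levels were 0.04, -0.11, -0.11 and -0.06 in controls, and -3.37, -2.37, -1.93 and -3.03 in AKT1 KO hearts. The AKT1 KO arrays all lay far below every control array, with a spread (SD 0.648, n = 4) wider than that of the controls (SD 0.073, n = 4). In AKT2 KO hearts the levels were -0.31, -0.05, -0.29 and -0.21, and in DKO hearts 0.05, -0.27, 0.87 and -0.09. Both of these groups overlapped the controls, although the DKO mice were also homozygous for floxed AKT1. Gsta2 fell by 2.61 ± 0.27 (SE) on the log2 scale in AKT1 KO hearts, a 6.11-fold difference and the third largest fall of all genes tested. The DKO difference from control was 0.20, with a 95% interval from -0.38 to 0.78, and DKO hearts lay 2.81 ± 0.27 above AKT1 KO hearts. AKT2 KO hearts lay 2.46 ± 0.27 above AKT1 KO hearts. The AKT1 KO difference was -2.11 within slide 1 and -3.11 within slide 2, where it was no longer called. Over the 30 other settings it lay between -3.11 and -1.95, so its size depends on the processing. Without AKT1 KO replicate 1 it was -2.38, and without DKO replicate 3 the DKO difference was -0.04.

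**Figure D1:**
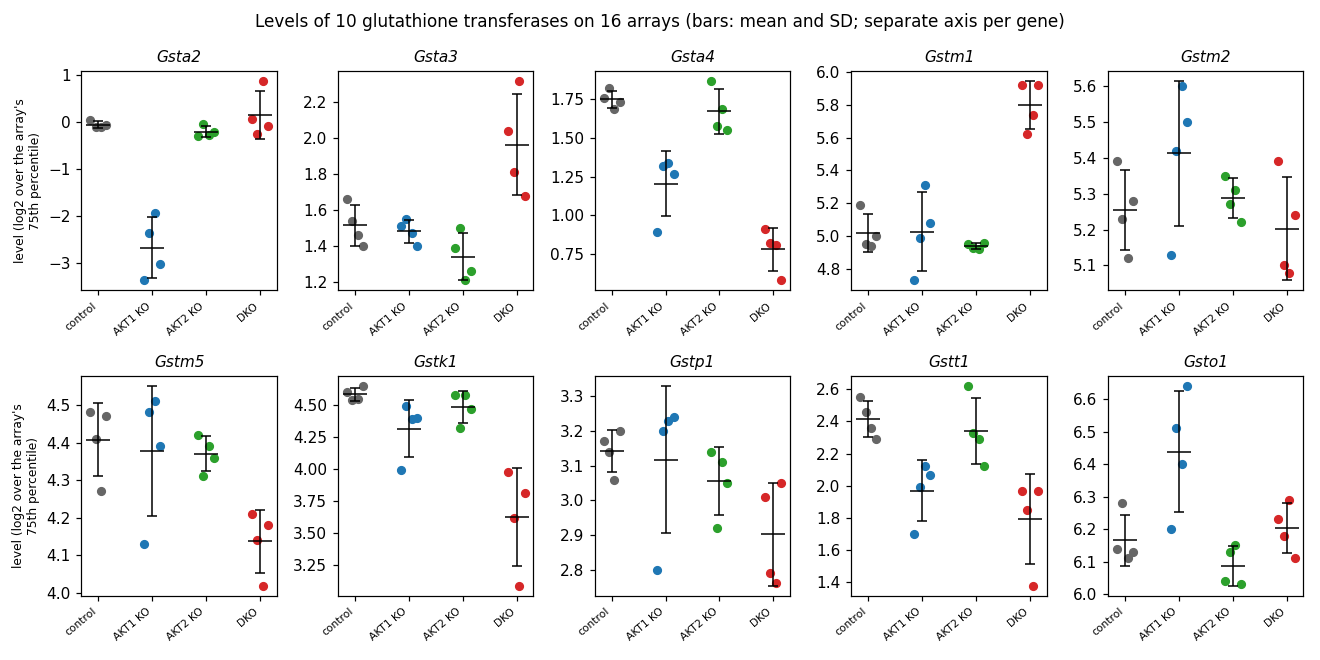
Level of each glutathione transferase on every array (vertical axis, log2 over the array's 75th percentile, a separate axis for each gene) in the 4 groups of 4 mice. Points are arrays and black bars the mean and SD; Gsta2 sits between -3.37 and -1.93 in AKT1 KO hearts and above -0.4 in the other groups, and Gstm1 sits between 5.62 and 5.92 in DKO hearts, above all other arrays.

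The neighbouring gene Gm10639 (chr9:78289928-78305525), which lies between Gsta4 and Gsta2, followed the same pattern as Gsta2. It was singled out after its values were seen. Its levels were 1.48, 1.34, 1.24 and 1.39 in controls, -1.7, -0.86, -0.25 and -1.46 in AKT1 KO hearts, 1.33, 1.45, 1.18 and 1.28 in AKT2 KO hearts and 1.45, 1.32, 2.51 and 1.44 in DKO hearts. Only the AKT1 KO arrays lay apart from the controls on the low side, and DKO replicate 3 was the highest array, as it was for Gsta2. Gm10639 fell by 2.43 in AKT1 KO hearts (limma adjusted p = 4.28e-04), and its DKO difference was 0.32 (adjusted p = 0.3808). Over the 16 arrays Gsta2 and Gm10639 had r = 0.997, and r = 0.982 after each group's mean was subtracted. The arrays share their groups, so these are descriptions. The files used here hold no probe sequences, and whether each probe also binds the other gene's RNA was not tested. Of the other genes tested within 500 kb, only Gsta4, the third alpha class gene there, was called in AKT1 KO hearts. The rest differed by between -1.19 (Gcm1, adjusted p = 0.5995) and 0.255 (Slc17a5, adjusted p = 0.9393) in AKT1 KO hearts. Gsta4 is described next.

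Gsta4 was lower in both groups with floxed AKT1, the AKT1 KO and the DKO, and its mean was lowest in the DKO. Gsta4 (chr9:78191966-78209349) encodes the alpha class enzyme with a high preference for hydroxynonenal, an aldehyde from oxidised lipids. Its levels were 1.76, 1.82, 1.69 and 1.73 in controls, 0.89, 1.32, 1.34 and 1.27 in AKT1 KO hearts, 1.87, 1.58, 1.69 and 1.55 in AKT2 KO hearts, and 0.91, 0.82, 0.81 and 0.58 in DKO hearts. The AKT1 KO and the DKO arrays each lay wholly below the controls, and AKT2 KO arrays overlapped them. Gsta4 fell by 0.97 ± 0.11 in DKO hearts and by 0.55 ± 0.11 in AKT1 KO hearts. DKO hearts lay 0.42 ± 0.11 below AKT1 KO hearts. The DKO difference was -0.92 within slide 1 and -1.02 within slide 2. The AKT1 KO call was lost under 10 of 30 other settings, including the omission of any 1 control array or of AKT1 KO replicate 4 and the fits within a slide. Over the 30 settings the difference lay between -0.64 and -0.44.

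Gsta3 (chr1:21240565-21265575), which in mice is known for detoxifying aflatoxin, was higher in DKO hearts. Its levels were 1.66, 1.54, 1.46 and 1.4 in controls, 2.04, 1.81, 2.32 and 1.68 in DKO hearts, 1.51, 1.55, 1.47 and 1.4 in AKT1 KO hearts and 1.39, 1.5, 1.21 and 1.26 in AKT2 KO hearts. The lowest DKO array lay just above the highest control, and both single knockouts overlapped the controls. Gsta3 rose by 0.45 ± 0.12 in DKO hearts, and a second probe gave 0.52 ± 0.13. Within slide 2 the difference was 0.58 and was not called. Without DKO replicate 3, together with AKT1 KO replicate 1, it was 0.33.

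Counted over all 10 transferases, 2 were called in AKT1 KO hearts, Gsta2 and Gsta4, both lower, where 0.794% of all genes were called and 0.379% were called lower. In AKT2 KO hearts none of the 10 was called by limma, where 0.131% of all genes were called, and none had an unadjusted p below 0.05, against 443 of the 13725 genes tested. In DKO hearts 6 were called, with 2 higher (Gsta3 and Gstm1) and 4 lower (Gsta4, Gstm5, Gstk1 and Gstt1), where 45.6% of all genes were called, 24.4% higher and 21.2% lower. Without AKT1 KO replicate 1 and DKO replicate 3 the counts were 3, 0 and 7. Arrays of the 2 groups did not overlap for 4 transferases in AKT1 KO hearts, for 0 in AKT2 KO hearts and for 7 in DKO hearts, against 9.19%, 7.62% and 44.4% of all genes. The median difference of the 10 from control was -0.03 for AKT1 KO hearts, -0.08 for AKT2 KO hearts and -0.15 for DKO hearts, and that of all genes -0.03, -0.02 and 0.02. Since the levels in these groups were known when the genes were picked, nothing is read from these counts. The 3 comparisons share the control arrays.

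**Figure D2:**
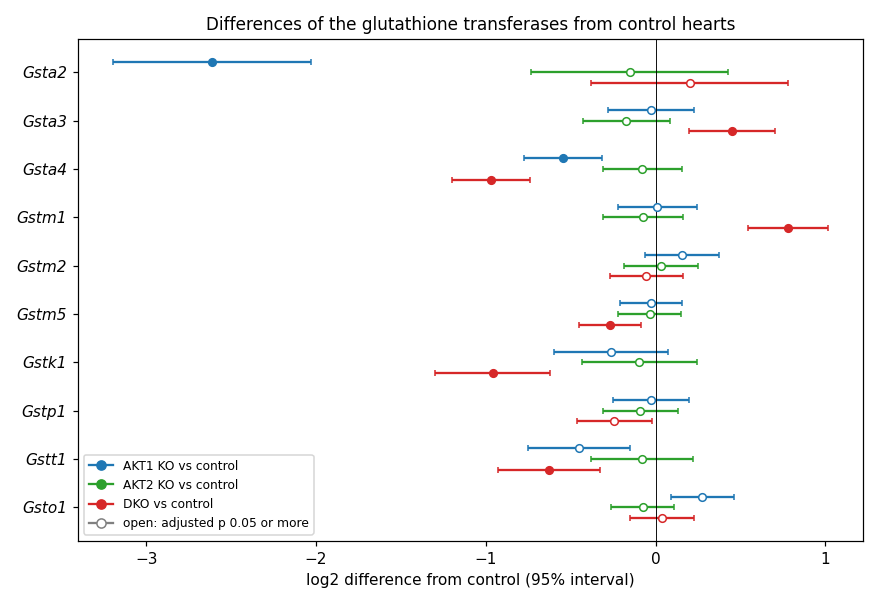
Difference of each transferase from control (horizontal axis, log2, with its 95% interval) in AKT1 KO, AKT2 KO and DKO hearts, 4 mice a group. Filled points have an adjusted p below 0.05. The AKT1 KO point of Gsta2 at -2.61 lies far from all others, every AKT2 KO interval spans 0, and the DKO points lie on both sides of 0.

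Between the single knockouts, 1 of 10 transferases was called, Gsta2, higher in AKT2 KO hearts, where 0.896% of all genes were called and 0.415% were called higher. Gsta4 lay 0.47 ± 0.11 and Gstt1 0.37 ± 0.14 higher in AKT2 KO than in AKT1 KO hearts, and Gsto1 differed by -0.35 ± 0.09. These 3 were not called, but Gsta4 was called under 7 of 30 other settings, among them the slide, or slide and row, as a block, and Gsto1 under 5, among them quantile normalization. DKO hearts differed from AKT1 KO hearts in 7 of 10 (47% of all genes), with Gsta2, Gsta3 and Gstm1 higher in the DKO (26.7% of all genes) and Gsta4, Gstm5, Gstk1 and Gsto1 lower (20.3%). They differed from AKT2 KO hearts in 6 of 10 (42.1% of all genes), namely Gsta3 and Gstm1 higher in the DKO (23.5% of all genes) and Gsta4, Gstm5, Gstk1 and Gstt1 lower (18.6%). The calls of Gstm5 and Gsto1 against AKT1 KO hearts were lost under 10 and 13 of 30 other settings, and that of Gstm5 against AKT2 KO hearts under 17. Gstm2 and Gstp1, not called against AKT1 KO hearts, were each called lower in the DKO under 4 of 30, among them quantile normalization. The departure from additivity is the DKO difference minus the sum of the 2 single knockout differences. It was called for 3 of 10 (26% of all genes), all above 0 (15.9%), at 2.97 ± 0.39 for Gsta2, 0.65 ± 0.17 for Gsta3 and 0.84 ± 0.16 for Gstm1. The call was lost within both slides for Gstm1 and within slide 2 for Gsta3. With AKT1 KO replicate 1 left out 6 were called, and under quantile normalization 8. The added departures were all below 0, for Gsta4, Gstm5 and Gstk1 in both cases and for Gstm2 and Gsto1 under quantile normalization.

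The mu class genes lie side by side on chromosome 3, and in DKO hearts they differed in direction. The mu enzymes conjugate many foreign and internal electrophiles. Gstm1 (chr3:108012250-108017973) had levels of 5.19, 4.95, 4.94 and 5 in controls, 4.73, 4.99, 5.31 and 5.08 in AKT1 KO hearts, 4.95, 4.93, 4.92 and 4.96 in AKT2 KO hearts, and 5.92, 5.62, 5.74 and 5.92 in DKO hearts. The DKO arrays were all above every other array. Gstm1 rose by 0.78 ± 0.11 in DKO hearts, a 1.72-fold difference, and its second probe gave 0.80 ± 0.10. The difference was 0.70 within slide 1 and 0.86 within slide 2.

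Gstm2 (chr3:107981702-107986420), a mu enzyme abundant in muscle and known to bind the cardiac ryanodine receptor, overlapped the controls in every knockout group. It ranged from 5.12 to 5.39 in controls, from 5.13 to 5.6 in AKT1 KO, from 5.22 to 5.35 in AKT2 KO and from 5.08 to 5.39 in DKO hearts. Its DKO difference was -0.05, with a 95% interval from -0.27 to 0.16. Gstm5 (chr3:107895854-107898685), at the end of the cluster, ranged from 4.27 to 4.48 in controls, from 4.13 to 4.51 in AKT1 KO, from 4.31 to 4.42 in AKT2 KO and from 4.02 to 4.21 in DKO hearts. The DKO arrays lay below all controls by a narrow gap. Gstm5 fell by 0.27 ± 0.09 in DKO hearts, and its second probe gave -0.31 ± 0.09. This call was lost without control replicate 1 (-0.24) or control replicate 4 (-0.25), with no filter on dim probes and within slide 2.

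The cluster's other tested genes, which are not among the 10, were all called higher in DKO hearts on the probe used for each. Gstm3, next to Gstm2, had levels of 6.04, 5.9, 5.92 and 6.03 in controls and of 6.78, 6.56, 6.4 and 6.68 in DKO hearts. No DKO array overlapped a control. Gstm3 rose by 0.63 ± 0.10 (limma adjusted p = 1.14e-04) and Gstm4 by 0.57 ± 0.11 (adjusted p = 8.34e-04). Gstm6 rose by 0.30 ± 0.11 on its brighter probe (adjusted p = 0.0351), from a mean of 1.67 to 1.97, but its other probe went from -0.42 in controls to -2.01 in DKO hearts, so its direction depends on the probe. Gstm7 was not tested because an array had an outlier flag at its probe. Over the arrays without the flag its mean was 0.73 in controls and 0.05 in DKO hearts. Mu class transcripts are alike in sequence, and how much each probe binds the others' RNA was not tested. In order along the chromosome, the DKO differences were -0.27 for Gstm5, 0.30 for Gstm6, 0.63 for Gstm3, -0.05 for Gstm2, 0.78 for Gstm1 and 0.57 for Gstm4. None of the 6 was called in AKT1 KO or AKT2 KO hearts.

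**Figure D3:**
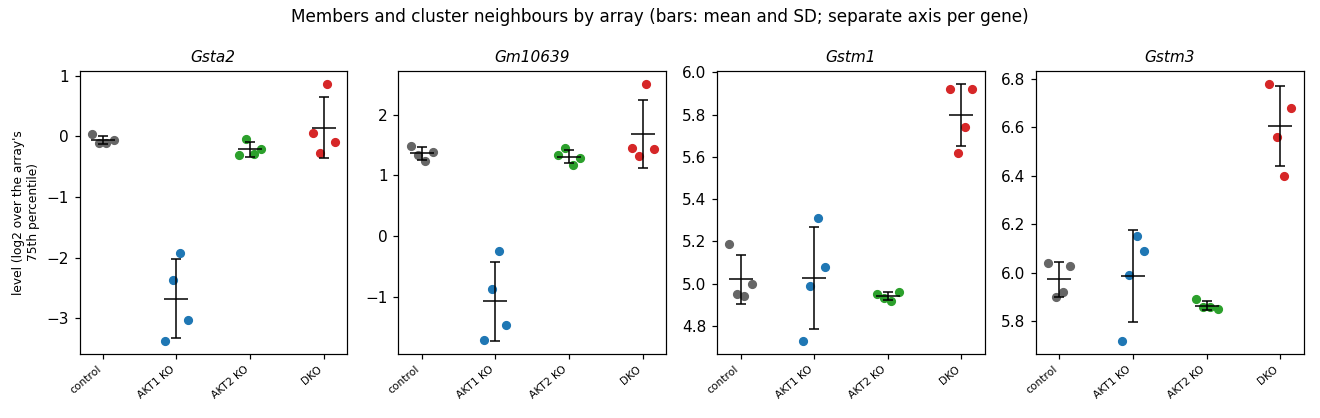
Levels by array (vertical axis, log2 over the array's 75th percentile, a separate axis for each gene) of Gsta2 and its neighbour Gm10639, and of Gstm1 and its cluster neighbour Gstm3, in the 4 groups. Points are arrays, and bars the mean and SD over 4 mice. Gsta2 and Gm10639 are low in AKT1 KO hearts, at means of -2.67 and -1.07, and Gstm1 and Gstm3 are high in DKO hearts, at means of 5.80 and 6.60.

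Gstk1 (chr6:42245935-42250441), the kappa class enzyme of mitochondria and peroxisomes, was lower in DKO hearts. Its levels were 4.6, 4.54, 4.55 and 4.65 in controls, 3.99, 4.49, 4.39 and 4.4 in AKT1 KO hearts, 4.58, 4.32, 4.58 and 4.47 in AKT2 KO hearts, and 3.98, 3.62, 3.09 and 3.81 in DKO hearts. All DKO arrays lay below all controls, and DKO replicate 3 was the lowest. AKT1 KO arrays lay below the controls by a small gap, and the difference of -0.26 ± 0.16 was not called. Gstk1 fell by 0.96 ± 0.16 in DKO hearts, a 1.95-fold difference. It was -0.77 within slide 1, -1.15 within slide 2 and -0.78 without DKO replicate 3.

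Gstt1 (chr10:75783813-75798584), the theta class enzyme that acts on small halogenated compounds, had levels of 2.55, 2.46, 2.36 and 2.29 in controls, 1.7, 1.99, 2.12 and 2.07 in AKT1 KO hearts, 2.62, 2.33, 2.29 and 2.12 in AKT2 KO hearts, and 1.97, 1.85, 1.38 and 1.97 in DKO hearts. Both groups with floxed AKT1 lay wholly below the controls. Gstt1 fell by 0.63 ± 0.14 in DKO hearts, and by 0.60 within slide 1 and 0.65 within slide 2, where it was not called. Its AKT1 KO difference of -0.45 ± 0.14 was not called, and the DKO and AKT1 KO hearts differed by -0.18 (95% interval from -0.48 to 0.13). The nearby theta gene Gstt2 went the other way, with a rise of 0.43 ± 0.13 in DKO hearts (adjusted p = 0.0157). Gstt2 also tended higher in AKT2 KO hearts (0.38 ± 0.13, not called), and DKO hearts differed from these by 0.045. Gstt3, on the other side of Gstt1 and nearer to it, differed by 0.19 in DKO hearts and was not called.

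The pi and omega enzymes were not called against control in any knockout group. Gstp1 (chr19:4035411-4037912), which besides conjugation binds stress kinases, ranged from 3.06 to 3.2 in controls, from 2.8 to 3.24 in AKT1 KO, from 2.92 to 3.14 in AKT2 KO and from 2.76 to 3.05 in DKO hearts. The DKO difference of -0.24 ± 0.10 was not called, although no DKO array reached the lowest control. It was called under 5 of 30 other settings, among them quantile normalization (-0.26). Its near copy Gstp2, next to it, differed by -0.18 (adjusted p = 0.1346), and the upstream stretches of the pair share a run of 43 letters. Whether the probe of each also binds the other gene's RNA was not tested. Gsto1 (chr19:47854973-47864790), which reduces dehydroascorbate, had levels of 6.14, 6.28, 6.11 and 6.13 in controls and of 6.2, 6.51, 6.4 and 6.64 in AKT1 KO hearts. It ranged from 6.03 to 6.15 in AKT2 KO and from 6.11 to 6.29 in DKO hearts, so that only AKT1 KO hearts tended higher, with 1 array among the controls. The AKT1 KO difference of 0.27 ± 0.09 was not called, and it was 0.35 and called without AKT1 KO replicate 1. A second probe gave 0.305 ± 0.105. The DKO difference of Gsto1 was 0.04 (95% interval from -0.15 to 0.22), and -0.08 under quantile normalization.

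The order of the groups thus differed between genes. By group mean, Gsta2 ran from AKT1 KO (-2.67) to AKT2 KO (-0.21), control (-0.06) and DKO (0.14), and its last 3 groups overlapped. Gsta4 ran from DKO (0.78) to AKT1 KO (1.21), AKT2 KO (1.67) and control (1.75). Its last 2 groups overlapped, and DKO and AKT1 KO hearts overlapped by 1 array of each. Gstt1 had the same order, from 1.79 through 1.97 and 2.34 to 2.42, with DKO and AKT1 KO overlapping, and AKT2 KO and control overlapping. Gstk1 also ran from DKO (3.62) through AKT1 KO (4.32) and AKT2 KO (4.49) to control (4.58), with only the DKO apart from its neighbour in the order. Gsta3 and Gstm1 were highest in the DKO, at 1.96 and 5.80, and their other 3 groups overlapped. The members' median SD within a group was 0.09 in controls, 0.21 for AKT1 KO hearts, 0.11 for AKT2 KO hearts and 0.15 for the DKO, against 0.09, 0.16, 0.11 and 0.25 over all genes.

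Across the 16 arrays, Gstm5 and Gstp1 were the members most alike (r = 0.90), followed by Gstm5 and Gstk1 (0.89). After each group's mean was subtracted, Gstm1 and Gstm2 had r = 0.90, although of these only Gstm1 was called in DKO hearts against control. These values also hold whatever whole arrays share, such as RNA quality and scaling. Among genes with standard symbols, which leaves out Gm10639, those most like Gsta2 over the arrays were Ttc12 (r = 0.97), Map1s (0.96) and Aldh16a1 (0.96). Those most like Gsta4 were Scp2 (0.98), Suclg1 (0.97) and Camk1 (0.97). Gstk1 was most like Grb14, Ogdh and Aldh4a1 (0.98 each), and Gstm1 most like Lbhd1, Gstm3 (0.98 each) and Spcs2 (0.97). For the remaining members they were Sec24b (0.94) and Cttn (0.93) for Gsta3, Blvra, Trappc2l and Btbd6 (0.81 to 0.89) for Gstm2, Cuta, Txn2 and Sdhc (0.96 to 0.97) for Gstm5, Trappc2l, Exosc4 and Dap3 (0.94 to 0.95) for Gstp1, Dglucy, Arhgef17 and Mrps35 (0.94 to 0.97) for Gstt1, and Cnot7, Lpl and Ripk4 (0.84 to 0.91) for Gsto1.

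Markers of cell types moved in DKO hearts too. All 6 cardiomyocyte markers tested were lower, with a summed linear level of 1920 to 2310 against 2580 to 3000 in controls, and all 6 fibroblast markers were higher, at 229 to 258 against 153 to 165. Of the macrophage markers 3 of 6 were higher, with a summed level of 26.9 to 36.9 against 23 to 25.7. Of the endothelial markers 1 of 6 was lower, with a summed level of 31.4 to 48.8 against 47 to 51.9. Of the smooth muscle markers 2 of 5 were higher and 2 lower, with a summed level of 79.9 to 95.4 against 111 to 118. The adipocyte markers Adipoq, Plin1 and Retn were not well above background, and of the other 3, 2 were higher and 1 lower. No neutrophil, mesothelial or erythroid marker tested was called. In AKT1 KO and AKT2 KO hearts no marker of any list was called. In these bulk samples, fewer cells of a type and less RNA per cell cannot be told apart, and the part of these shifts in the transferases' DKO differences was not tested.

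The genes around the transferases were taken from 6 lists drawn up by function, 100 tested genes in all. In AKT1 KO hearts 1 of 100 was called and in AKT2 KO hearts 2, against 0.794% and 0.131% of all genes. In DKO hearts 64 of 100 were called, 42 higher and 22 lower, against 45.6% of all genes, 24.4% higher and 21.2% lower. The AKT1 KO gene was Aldh1b1, a mitochondrial aldehyde dehydrogenase, which rose by 0.82 ± 0.14 (adjusted p = 0.0121) and fell by 0.90 ± 0.14 in DKO hearts (adjusted p = 1.58e-04). The AKT2 KO genes were Blvrb, a biliverdin reductase, which rose by 0.92 ± 0.09 (adjusted p = 1.16e-04), and Ftl1, the ferritin light chain, which was lower, at -1.001 ± 0.144 (adjusted p = 0.0057). Both lie on chromosome 7, as does Akt2, and whether their position plays a part in these calls was not tested.

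Of 22 other transferases and related membrane enzymes, 19 were on the array and 13 were tested. Of these 13, 4 were higher (24.4% of all genes) and 3 lower (21.2%) in DKO hearts, with a median difference of 0.19. Besides Gstm3, Gstm4, Gstm6 and Gstt2, described above, Gstz1, the zeta enzyme of tyrosine breakdown, fell by 0.77 ± 0.09 (adjusted p = 1.50e-05). The microsomal Mgst3 fell by 0.49 ± 0.11 (adjusted p = 0.0026), and the prostaglandin E synthase Ptges by 0.25 ± 0.06 (adjusted p = 0.0057). The Ptges value is that of its brightest probe. Its other probes did not pass the filter on dim probes. Their means went the other way, from -4.88 and -3.97 in controls to -3.81 and -3.67 in DKO hearts. Gstm3, Gstm4, Gstz1, Mgst3 and, on its brightest probe, Ptges also differed between the DKO and each single knockout, in the same direction as against control. None of the 13 was called in either single knockout. Gm10639, whose AKT1 KO call is given above, was not on this list.

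The list of NRF2 regulators and targets held the largest share of higher genes in the DKO, 17 of 26 (24.4% of all genes). It had 1 lower gene (Cbr1, at -0.75, adjusted p = 0.0018), where 21.2% of all genes were lower, and a median difference of 0.40. The small MAF genes Maff and Mafk rose by 2.61 ± 0.22 (adjusted p = 5.46e-07) and 1.83 ± 0.18 (adjusted p = 1.71e-06). Ephx1, the microsomal epoxide hydrolase, rose by 1.22 ± 0.16 (adjusted p = 3.66e-05), and G6pdx, which feeds the NADPH supply, by 0.78 ± 0.10 (adjusted p = 3.81e-05). Nqo1, a widely used NRF2 target that was named after its values were seen, had means of 1.5 in controls, 0.91 for AKT1 KO hearts, 1.57 for AKT2 KO hearts and 2.19 for the DKO. Its AKT1 KO difference was -0.59 (adjusted p = 0.0514) and its DKO rise 0.69 (adjusted p = 7.05e-04).

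Of the 17 genes of glutathione synthesis and turnover, 8 were higher (24.4% of all genes) and 3 lower (21.2%) in the DKO. The other 6 were not called, and the median was 0.36. Gss, which completes the synthesis of glutathione, rose by 0.87 ± 0.15 (adjusted p = 2.30e-04), and Dpep1, a dipeptidase of glutathione breakdown, by 0.56 ± 0.09 (adjusted p = 1.32e-04). Chac2, which degrades glutathione in the cytosol, fell by 1.51 ± 0.18 (adjusted p = 1.49e-05), Ggct, another enzyme of glutathione breakdown, by 0.51 (adjusted p = 3.11e-04), and Oplah, which recycles its glutamate part, by 0.96 ± 0.15 (adjusted p = 1.05e-04).

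Conjugate exporters and glutathione-dependent enzymes were split, with 4 of 15 higher (24.4% of all genes), 6 lower (21.2%) and a median of 0.07. Esd, which completes glutathione-dependent formaldehyde removal, rose by 1.21 ± 0.14 (adjusted p = 9.10e-06), and the exporter Abcg2 by 0.76 ± 0.11 (adjusted p = 1.04e-04). Glrx5, a mitochondrial glutaredoxin of iron-sulfur assembly, fell by 0.67 ± 0.10 (adjusted p = 1.04e-04). Of the xenobiotic genes 7 of 14 were higher (24.4% of all genes) and 2 lower (21.2%), with a median of 0.25. Fmo5, a flavin monooxygenase, rose by 0.93 ± 0.14 (adjusted p = 9.28e-05), Por, the electron donor of cytochromes P450, by 0.51 ± 0.09 (adjusted p = 3.46e-04), and Cyp1b1 by 1.31 ± 0.28 (adjusted p = 0.0014). Cyp2e1 rose by 0.92 ± 0.15 (adjusted p = 1.47e-04), but was well above background on 3 of 4 control arrays only.

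Calls of 3 further genes, and those of Cbr1 and Ggct above, belong to the small counts of these lists and were named after their values were seen. The exporter Abcc3 rose by 0.56 (adjusted p = 0.0237), the nuclear receptor Rxra fell by 0.35 (adjusted p = 0.0032), and Cyp2b10 fell by 2.14 (adjusted p = 0.0089).

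The list called lipid aldehyde clearance holds aldehyde dehydrogenases and aldo-keto reductases, not all of them enzymes of lipid aldehydes. It was the one with more lower than higher genes by the widest margin. Of its 15 genes 7 were lower (21.2% of all genes) and 2 higher (24.4%), with a median of -0.25. Akr1b10 and Akr1b3, aldehyde-reducing aldo-keto reductases, fell by 1.15 ± 0.13 (adjusted p = 9.98e-06) and 0.77 ± 0.11 (adjusted p = 5.43e-05). Aldh6a1, a mitochondrial dehydrogenase, fell by 0.80 ± 0.13 (adjusted p = 1.41e-04). The 2 higher genes, named after their values were seen, were Akr1b8 (0.69, adjusted p = 0.0044) and Aldh1a2, a maker of retinoic acid (1.23, adjusted p = 0.0191). These DKO counts stand beside the shift in cell type markers given above, whose part in them was not tested, and without AKT1 KO replicate 1 and DKO replicate 3 the number called was 71 of 100.

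**Figure D4:**
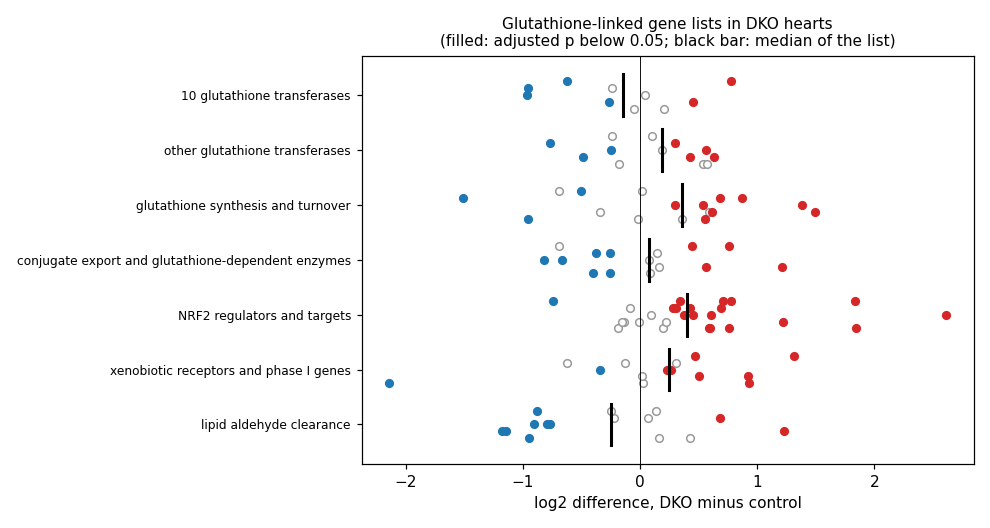
Difference between DKO and control hearts (horizontal axis, log2) for the 10 transferases and for the tested genes of the 6 lists. Points are genes, filled red (higher) or blue (lower) where the adjusted p is below 0.05, and black bars are medians, which run from -0.25 for lipid aldehyde clearance to 0.40 for NRF2 regulators and targets.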

How the data were processed

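The 16 arrays are 1-colour (Cy3) Agilent arrays, 8 on each of 2 slides, made from 100 ng of RNA each. Per the file headers, the deposited intensity values are Feature Extraction 12.0.3.1 processed signals, background-subtracted and detrended within each array. Log2 of this signal was centred on each array's 75th percentile over 59305 non-control spots. Of 56605 probes, 118 with an outlier flag were left out and 32994 were named through their RefSeq accession (GRCm38.p6 table). A probe was kept if any group had it well above background in all 4 mice, and the brightest stood for its gene. Fits used limma 3.58.1 in R 4.3.3 with 1 mean per group and were checked on simulated data. The authors' deposited table holds log2 values that matched quantile-normalized signals centred on each probe's median (r = 1 on every array, to 4 decimals; column medians from -0.0244 to 0.0132), and was an alternative. Each sample has an identifier of its own in the labels and was taken as 1 mouse; where samples shared an animal, p-values would measure only the spread between samples.

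The genes, lists and tests were chosen with earlier results of these data known. Named were all 10 transferases, up to 4 called genes per list and comparison with the smallest adjusted p, all other called transferases, and the 3 genes with standard symbols most correlated with each transferase. Of the genes this rule names, 2 are not reported here. Upstream sequences and gene positions came from RefSeq tables; the array design is annotated on mm9 per the file headers, and no probe position was used. Alternatives covered background correction, normalization, probe filters, blocks, single slides and left-out arrays.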

Additional observations from a re-analysis of the deposited data

Results flagged for a closer look

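In a group of 4 arrays, 1 array lay outside Dixon's 95% limit (0.829) for 3 of 40 combinations of transferase and group, where chance gives about 1 in 20. Gsta4 was 0.89 on AKT1 KO replicate 1, against 1.27 to 1.34 on the other AKT1 KO arrays. Gstp1 was 2.8 on the same array, against 3.2 to 3.24. Gsto1 was 6.28 on control replicate 2, against 6.11 to 6.14 on the other controls.

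The departure from additivity was called for 3 transferases, at 2.96 for Gsta2, 0.65 for Gsta3 and 0.84 for Gstm1 on the log2 scale. The genes were picked with the levels of these groups known, so these values are a description. Within slide 2 the calls of Gsta3 and Gstm1 were lost, and within slide 1 that of Gstm1. Over 29 other settings the departure lay between 2.18 and 3.75 for Gsta2, 0.53 and 0.74 for Gsta3, and 0.60 and 0.95 for Gstm1.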

How the results depend on the processing

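No direction of a called transferase reversed under any of the settings run. Leaving out 1 array at a time gave 1 to 3 transferases called in AKT1 KO hearts (2 with all arrays), 5 to 7 in DKO hearts (6), 5 to 9 between DKO and AKT1 KO (7), 5 to 6 between DKO and AKT2 KO (6), 1 to 3 between the single knockouts (1) and 3 to 6 for the departure from additivity (3). For the listed genes it gave 0 to 3 in AKT1 KO (1), 2 to 3 in AKT2 KO (2) and 55 to 67 in DKO hearts (64). In AKT1 KO hearts 1 transferase was called with no filter on dim probes, with the replicate number as a replicate block, within slide 1 and with the percentile taken over distinct probes (added after seeing the data), and 0 within slide 2. The listed genes called there were 2 with normexp background correction, 2 with a stricter filter, 0 within slide 1, 0 within slide 2, and 2 without AKT1 KO replicate 1 and DKO replicate 3 (added after seeing the data). In AKT2 KO hearts 1 listed gene was called within slide 1 and 0 within slide 2. Within slide 2, with 2 arrays a group, 3 transferases and 23 listed genes were called in DKO hearts, 2 transferases between DKO and AKT1 KO, 3 between DKO and AKT2 KO, 0 between the single knockouts and 1 for the departure. Between the single knockouts 3 were called under quantile normalization, 3 with the authors' values, 2 with the slide as a block, 2 with slide and row as a block, and 3 without AKT1 KO replicate 1 and DKO replicate 3. For the departure these were 8 under quantile normalization, 8 with the authors' values and 7 without both arrays, and the departures so added were all below 0. The cause of these changes was not tested.

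Over all genes, the number called in AKT1 KO hearts was 109, but 56 with no filter, 182 with only both compared groups in the fit, 14 and 4 within slides 1 and 2, and 54 to 291 with 1 array left out. In AKT2 KO hearts 18 became 42 with only both groups in the fit, 11 and 3 within the slides, and 14 to 37 with 1 array left out. Without AKT1 KO replicate 1 and DKO replicate 3 these counts were 308 and 47. Within slide 2, 6257 became 2464 for DKO against control, 6450 became 2715 against AKT1 KO (4195 with only both groups in the fit), 5780 became 1903 against AKT2 KO and 3566 became 188 for the departure. Between the single knockouts 123 became 81 with no filter, 46 and 8 within the slides, 328 without DKO replicate 3 and 496 without both arrays. The replicate numbers follow slide and row in all groups but AKT1 KO. The deviations of same-numbered arrays correlated at 0.14 to 0.37 between control and AKT2 KO and at 0.14 to 0.32 between control and DKO, where the replicate block changed no transferase call. In the other pairs of groups some correlations were below 0.1, down to -0.35. There the block ended the calls of Gsta4 in AKT1 KO hearts, of Gstm5 and Gsto1 between DKO and AKT1 KO, and of Gstm5 between DKO and AKT2 KO, and no other transferase call. By slide and row, control and AKT1 KO arrays correlated at 0.13 to 0.38.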
